A study of Homo sapiens with 4 samples.

Results

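7SL RNA, the mRNAs of the proteins that assemble on it and the mRNAs of the receptor for the finished particle were followed in an immunoprecipitation of RNA bound to tagged ALKBH5. The set was chosen by gene symbol and holds 10 of the 26830 rows of the deposited table. It comprises the 7SL rows RN7SL1 and RN7SL2, the particle proteins SRP9, SRP14, SRP19, SRP54, SRP68 and SRP72, and the receptor subunits SRPR, listed under its current symbol SRPRA, and SRPRB. The cells were NOMO-1, a human acute myeloid leukaemia line with monocytic features, and all of them carried a lentivirus with 3xFlag-tagged ALKBH5 (ALKBH5 OE in the labels). ALKBH5 removes the methyl group of N6-methyladenosine from RNA. After UV crosslinking, RNA was taken either directly (input, no antibody) or from an anti-Flag pull-down (Flag-IP), with 2 libraries in each group, numbered 1 and 3. A pull-down from untagged cells is not analysed here, so RNA that reached the pull-down without ALKBH5 was not measured. The labels do not tell whether the 2 libraries of a group had a culture each, and p-values therefore reflect only library-to-library spread, possibly technical. For the TPM as deposited, this spread is pooled over genes of similar level and is not a gene's own.

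The signal recognition particle (SRP) carries ribosomes that have begun to make a secreted or membrane protein to the endoplasmic reticulum. Its scaffold is 7SL, a short noncoding RNA made by RNA polymerase III and among the most abundant RNAs of the cytoplasm. SRP9 and SRP14 bind the Alu domain, formed by both ends of 7SL, and slow elongation. SRP19, SRP54, SRP68 and SRP72 bind the S domain, where SRP54 is the GTPase that recognises the signal sequence. SRPRA and SRPRB form the receptor on the membrane.

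RN7SL1 and RN7SL2 are nearly identical, which decides how far their values can be read apart. Both are single-exon noncoding genes on chromosome 14 in GENCODE 29 (GRCh38). Over 300 aligned positions of their transcripts 295 were identical (98.3%). Of the 250 windows of 50 bases in RN7SL1, 158 occur unchanged in RN7SL2, so a read of that length from most of the molecule cannot be assigned to one row, and the sum of both rows is the safer measure. Another copy in GENCODE, RN7SL3, is 97.7% identical to RN7SL1, and 677 further genes carry RN7SL pseudogene names. None of these is a row of the table, so reads from them may be counted under the rows shown. RN7SL1 also lies opposite the ribosomal protein gene RPS29 (5.38 to 26.98 TPM), which is far below it in level. On the same strand AL139099.4 overlaps RN7SL1 and AL627171.2 overlaps RN7SL2.

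7SL was abundant in every library and higher in the pull-down. TPM is a relative abundance per transcript length that sums to 1000000 in each library, so it keeps no sequencing depth and no counting error can be given. RN7SL1 was at 46933 and 49419 TPM in the inputs and at 88973 and 82371 TPM in Flag-IP. RN7SL2 was at 39474 and 44043 TPM in the inputs and at 76844 and 64649 TPM in Flag-IP. Neither row overlapped between the groups, the pull-downs lying above the inputs as in 93.1% of the genes averaging 1 TPM or more. In every library both rows ranked between 3 and 5 among all rows. Together they made up 8.64% and 9.35% of all TPM in input and 16.6% and 14.7% in Flag-IP, and the mean ratio of the summed level was 1.74. RN7SL1 stood at 1.19 and 1.12 times RN7SL2 in input and at 1.16 and 1.27 times in Flag-IP, so the proportion of the copies overlapped between the groups.

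**Figure D1:**
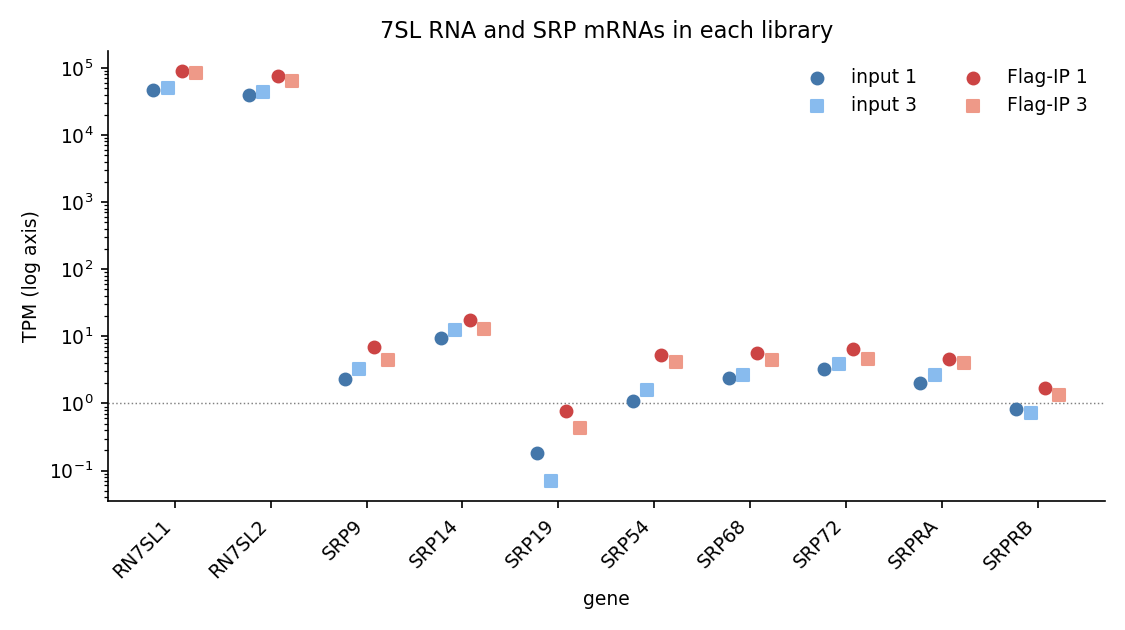
TPM of the 10 members (horizontal axis) in the 4 libraries, on a log axis, with 1 point per library and a dotted line at 1 TPM. Every 7SL point lies far above every mRNA point, the highest of which is SRP14 in Flag-IP 1 (17.72 TPM), and for each gene the Flag-IP points lie above the input points.

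Whether 7SL counts as enriched depends on the RNA it is set against. limma on log2(TPM + 1), with the Benjamini-Hochberg adjustment over the 6487 genes that averaged 1 TPM or more, placed RN7SL1 higher in Flag-IP by 0.83 ± 0.12 (log2 ± SE, adjusted p = 2.2e-11) and RN7SL2 by 0.76 ± 0.12 (adjusted p = 2.1e-09). On this deposited scale 86.6% of the tested genes were called higher and 0.74% lower, and the median gene stood at 0.84. The Flag-IP to input ratio of RN7SL1 was exceeded by 75.4% of the tested genes and that of RN7SL2 by 78.9%. With the libraries scaled so that the median gene stays near 0 (median-ratio scale, median -0.01), limma gave RN7SL1 -0.43 ± 0.16 (adjusted p = 0.078) and RN7SL2 -0.51 ± 0.15 (adjusted p = 0.038). Here 22.3% of genes were called higher and 18.6% lower. The call of RN7SL2 was lost without any single library (adjusted p = 0.055 to 0.25), and with quantile scaling both rows turned to the other side (0.50 and 0.15, adjusted p = 0.23 and 0.24).

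Ratios within a library do not depend on how libraries are scaled, and 7SL was set against other abundant noncoding RNAs in this way. Against 18S, the RNA of the small ribosomal subunit, 7SL was at 0.218 and 0.219 TPM per TPM in input and at 0.360 and 0.342 in Flag-IP. Against 28S, the RNA of the large subunit, the ratio was 0.353 and 0.338 in input and 1.22 and 0.980 in Flag-IP. Neither ratio overlapped between the groups, the pull-downs being higher. As deposited, 93.1% of tested genes lay above both inputs, while the limma difference was 0.11 for 18S and -0.87 for 28S. A rise against these RNAs is therefore not read as particular to 7SL. The share of all genes with such a ratio was not counted. Against 7SK (RN7SK), which holds the elongation factor P-TEFb inactive in the nucleus, 7SL was at 13.8 and 13.4 in input and at 3.24 and 3.25 in Flag-IP. 7SL thus lay lower against 7SK in the pull-down, with nearly equal values in the libraries of each group. RN7SK itself rose by more than the median gene as deposited (2.86 against 0.84), so this is not read as particular to 7SL either. Against RMRP, the RNA of RNase MRP, the ratio was 27.4 and 26.7 in input and 27.2 and 25.1 in Flag-IP, and these values overlapped. Against RPPH1, the RNA of RNase P, it was 13.8 and 13.1 in input and 14.2 and 11.9 in Flag-IP, again with overlap. RMRP, which like 7SL, 7SK and RPPH1 is made by RNA polymerase III, had a limma difference of 0.85 as deposited and -0.42 (adjusted p = 0.060) after median-ratio scaling, and RPPH1 had 0.85 and -0.42 (adjusted p = 0.095). RN7SK had 2.86 (adjusted p = 4.1e-92) and 1.60 (adjusted p = 0.0011), higher on both.

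The remaining noncoding RNAs of this list with a mean of at least 100 TPM spread widely. RNY1, a Y RNA, was at 236 and 177 TPM in input and at 246 and 396 TPM in Flag-IP (-0.65 on the median-ratio scale, adjusted p = 0.19 in limma). The ribosomal RNAs RNA5S9, RNA28S5, RNA5-8S5 and RNA45S5 were called lower on both scales, between -1.20 and -0.87 as deposited and between -2.46 and -2.13 on the median-ratio scale. 18S (RNA18S5) was called lower by limma on the median-ratio scale alone (-1.15, adjusted p = 0.0056; deposited 0.11, adjusted p = 0.25). Over the 14 tested RNAs of the list, 8 were higher and 5 lower on the deposited scale and 1 higher and 6 lower on the median-ratio scale, with medians of 0.58 and -0.67 beside 0.84 and -0.01 for all tested genes. As a share of structural RNA other than 18S, 28S and 5.8S, 7SL was at 65.5% and 67.6% in input and at 61.0% and 59.5% in Flag-IP. RN7SK, counted in that total, was at 6280 and 6990 TPM in input and at 51117 and 45226 TPM in Flag-IP. A share without RN7SK was not tested.

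**Figure D2:**
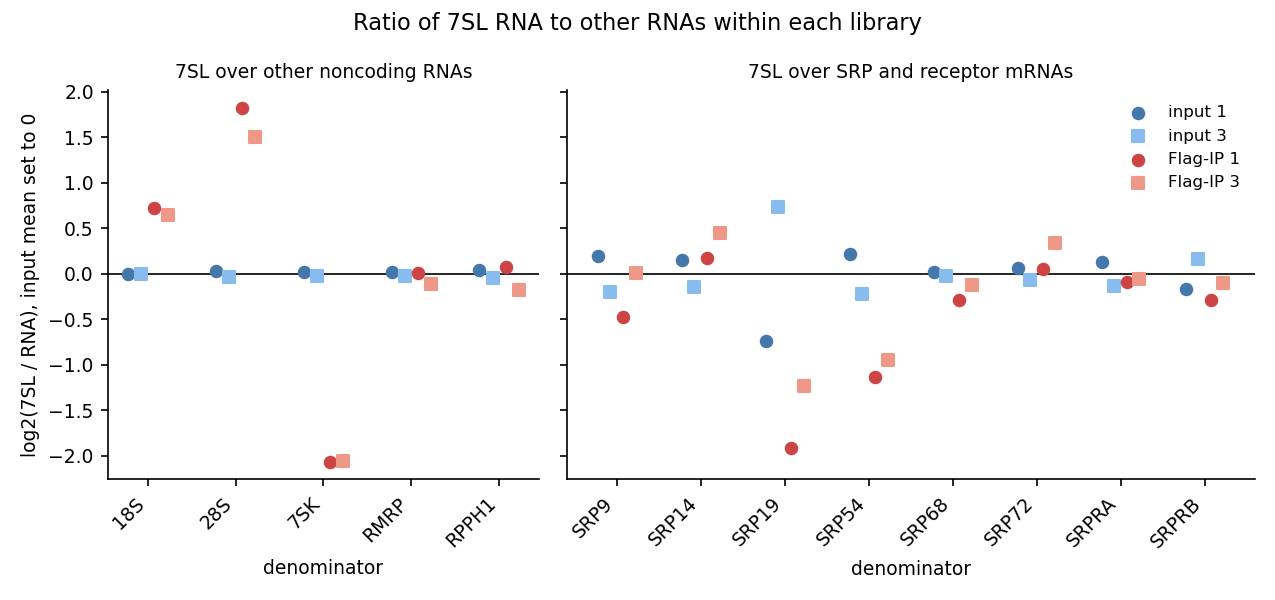
Ratio of summed 7SL TPM to another RNA in each of the 4 libraries, as log2 with the mean of the inputs set to 0 (vertical axis), for 5 noncoding RNAs (left) and the 8 mRNAs of particle and receptor (right). On the left, the Flag-IP points lie above the inputs for 18S and 28S and near -2 for 7SK, and overlap the inputs for RMRP and RPPH1. On the right, they lie below the inputs for SRP54, SRP68 and SRP19 and above them for SRP14. For the other mRNAs they overlap the inputs. The levels of SRP19 are too low for a fold.

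The mRNAs of particle and receptor were rare beside their RNA. In input the order of mean TPM (± SD, n = 2) was SRP14 at 10.9 ± 2.19, SRP72 at 3.59 ± 0.417, SRP9 at 2.80 ± 0.679, SRP68 at 2.52 ± 0.184, SRPRA at 2.33 ± 0.424, SRP54 at 1.33 ± 0.361, SRPRB at 0.765 ± 0.0778 and SRP19 at 0.125 ± 0.0778. Differences between SRP9, SRP68 and SRPRA were within their spread. In Flag-IP SRP14 again led at 15.4 ± 3.35, while SRP9 (5.76 ± 1.82), SRP72 (5.50 ± 1.24), SRP68 (5.07 ± 0.820), SRP54 (4.68 ± 0.827) and SRPRA (4.25 ± 0.431) each overlapped the next in this order. SRPRB (1.53 ± 0.269) and SRP19 (0.605 ± 0.248) were lowest in both groups. All cells carried the same transgene, so Flag-IP against input compares what each preparation recovered, not different conditions of the cells. The recovery of a transcript and the composition of the library cannot be told apart from these levels alone.

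All 7 tested mRNAs and both 7SL rows, 9 of 9 tested members, were called higher in Flag-IP on the deposited scale, where 86.6% of all tested genes were, and in all 9 the pull-downs lay above the inputs without overlap, as in 93.1% of tested genes (below in 1.09%). The median over the 7 mRNAs was 0.66, below the 0.84 of all tested genes. On the median-ratio scale 1 member was higher (SRP54), 3 were lower (RN7SL2, SRP14 and SRP72) and 5 did not pass, and the 7 mRNAs had a median of -0.21. Without overlap, 1 member lay above its inputs and 7 lay below on that scale, beside 37.0% and 37.1% of tested genes. Without Flag-IP 3 only SRP14 was called, and without input 1 or Flag-IP 1 there were 2 calls, both lower. SRP19 did not reach the mean of 1 TPM and was not tested. SRPRB averaged 1.15 TPM with both inputs below 1 TPM, so it passed the filter only through Flag-IP, where it was high, and its deposited call supports nothing.

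SRP54, the GTPase that binds the signal sequence and then the receptor, had the largest difference among the tested mRNAs as deposited and relative to 7SL, and was the only one called higher on the median-ratio scale. It was at 1.07 and 1.58 TPM in input and at 5.26 and 4.09 TPM in Flag-IP. Both Flag-IP values lay above both inputs, as for 93.1% of tested genes as deposited. The ratio of means was 3.53, a size exceeded by 23.4% of tested genes. limma gave 1.29 ± 0.21 as deposited (adjusted p = 4.8e-09) and 0.40 ± 0.12 after median-ratio scaling (adjusted p = 0.039). The latter call was lost without input 1, Flag-IP 1 or Flag-IP 3 (0.29, 0.39 and 0.43, adjusted p = 0.18, 0.11 and 0.10) and held without input 3 (0.52, adjusted p = 0.033). With all libraries kept, the median-ratio call was lost without a filter (0.37, limma adjusted p = 0.11) and with the replicate number as a block (0.40, adjusted p = 0.057). Quantile scaling, which replaces either scaling, gave no call (0.34, limma adjusted p = 0.061). In all, the median-ratio call held in 6 of 12 alternatives. The deposited call was lost with quantile scaling and with the length trend removed (0.51, limma adjusted p = 0.064). The gene lies at chr14:34981957-35029567 (plus strand, GENCODE 29), spans 47611 bases and has 17 exons in its longest transcript of 2327 bases. An antisense gene, SRP54-AS1, overlaps it, and whether the counting used strand is not given in the sources used here.

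SRP14 and SRP9 form the heterodimer on the Alu domain. SRP14 was at 9.38 and 12.47 TPM in input and at 17.72 and 12.98 TPM in Flag-IP, so that input 3 and Flag-IP 3 were close. As deposited it stood at 0.45 ± 0.22 (limma adjusted p = 0.041), where the call was lost without input 1, input 3 or Flag-IP 1 (adjusted p = 0.43, 0.056 and 0.37), and -0.72 ± 0.12 on the median-ratio scale (adjusted p = 0.0059). Its ratio of means, 1.41, was exceeded by 89.9% of tested genes. The ratio of means of SRP9, 2.055, was exceeded by 62.9% of tested genes. SRP9 was at 2.32 and 3.28 TPM in input and at 7.04 and 4.47 TPM in Flag-IP. Both pull-downs lay above both inputs for SRP9, as for 93.1% of tested genes as deposited. It stood at 0.81 ± 0.21 as deposited (limma adjusted p = 0.00023) and at -0.19 ± 0.14 after median-ratio scaling (adjusted p = 0.32), and its deposited call was lost without input 1 (adjusted p = 0.073). The ratio of SRP9 to SRP14 within a library was 0.247 and 0.263 in input and 0.397 and 0.344 in Flag-IP. SRP14 was the higher of the pair in every library, and the ratio was larger in both pull-downs than in the inputs. How many unrelated gene pairs do the same was not counted. GENCODE names 4 pseudogenes of SRP14 and 1 of SRP9, none of them a row of the table, so reads of these copies may be counted with the genes or lost.

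SRP68 and SRP72 bind 7SL as another heterodimer. SRP68 was at 2.39 and 2.65 TPM in input and at 5.65 and 4.49 TPM in Flag-IP (0.78 ± 0.21 as deposited, limma adjusted p = 4e-04). SRP72 was at 3.29 and 3.88 TPM in input and at 6.37 and 4.62 TPM in Flag-IP (0.49 ± 0.21, limma adjusted p = 0.025). SRP72 was lower on the median-ratio scale (-0.54 ± 0.10, limma adjusted p = 0.0099) and SRP68 stood at -0.21 ± 0.10 (adjusted p = 0.14). The call of SRP72 was lost on the deposited scale without input 1, input 3 or Flag-IP 1 (adjusted p = 0.25, 0.083 and 0.23) and on the median-ratio scale without Flag-IP 3 (adjusted p = 0.053). SRP68 was at 0.726 and 0.683 times SRP72 in input and at 0.887 and 0.972 times in Flag-IP, above input in both. The share of unrelated gene pairs that part in this way was not counted, so this is not read as a trait of the heterodimer. These genes have 3 and 2 named pseudogenes in GENCODE.

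SRP19 places SRP54 on 7SL. It was at 0.18 and 0.07 TPM in input and at 0.78 and 0.43 TPM in Flag-IP. The groups did not overlap, but at such levels, given to 2 decimals and with unknown depth, no fold is read from them. Its longest transcript in GENCODE, 7063 bases, was the longest of the members, and REEP5 overlaps it on the other strand.

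SRPRA, the receptor GTPase that docks with SRP54, was at 2.03 and 2.63 TPM in input and at 4.55 and 3.94 TPM in Flag-IP. It stood at 0.66 ± 0.21 as deposited (limma adjusted p = 0.0027) and at -0.30 ± 0.11 on the median-ratio scale (adjusted p = 0.068); without input 1 the deposited call was lost (adjusted p = 0.13). SRPRB, the membrane-anchored subunit, was at 0.82 and 0.71 TPM in input and at 1.72 and 1.34 TPM in Flag-IP. It had 0.52 ± 0.18 (limma adjusted p = 0.0067) and -0.14 ± 0.11 (adjusted p = 0.35), and its deposited call was lost without either input (adjusted p = 0.080 and 0.13). The ratio of SRPRB to SRPRA was 0.404 and 0.270 in input and 0.378 and 0.340 in Flag-IP, with overlap. FOXRED1 and FAM118B overlap SRPRA, and TF and RAB6B overlap SRPRB.

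**Figure D3:**
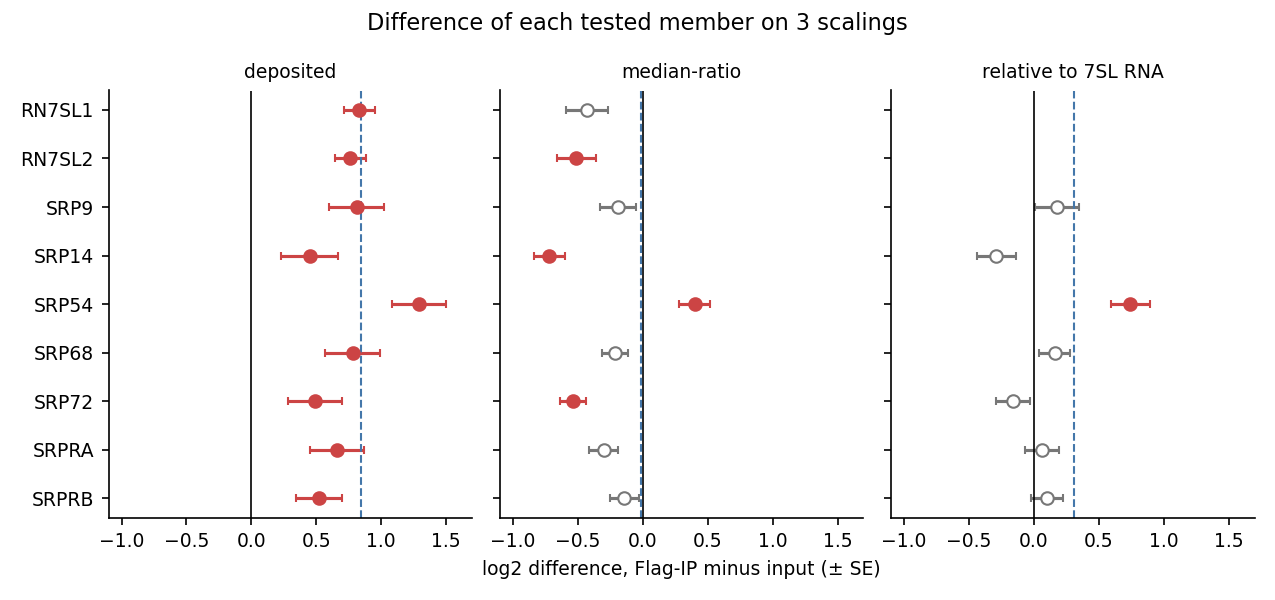
Flag-IP minus input log2 difference of the 9 tested members on the deposited, median-ratio and 7SL-referenced scales, with bars for the SE. Filled points passed limma at an adjusted p below 0.05, the solid line is 0 and the dashed line the median of all tested genes. SRP54 is the only member to the right of the dashed line on all 3 scales it was tested on, and SRP14 is the farthest to the left on each.

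To compare 7SL with the mRNAs directly, every library was divided by its summed 7SL level and the fit repeated over 6485 genes. Relative to 7SL, limma called SRP54 higher in Flag-IP by 0.74 ± 0.15 (adjusted p = 0.0052), and the other 6 tested mRNAs did not pass. Without overlap, 2 of the 7 lay above their inputs and 1 below, beside 62.5% and 12.7% of all genes. Among all genes 42.1% were called higher and 5.04% lower on this scale, and the median gene stood at 0.31, against a median of 0.10 for the 7 mRNAs. The values ran from -0.29 ± 0.15 for SRP14 (adjusted p = 0.15) through -0.16 for SRP72, 0.06 for SRPRA, 0.10 for SRPRB and 0.16 for SRP68 to 0.18 for SRP9. A value that did not pass does not show that an mRNA kept pace with 7SL. SRP54 stood at 0.52 to 1.00 in the 10 alternatives in which it could be tested. In those that kept all libraries its call held (limma adjusted p = 0.003 to 0.035). The lowest of these came with the replicate pairing crossed, an alternative chosen after seeing the data.

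The same comparison in raw ratios showed how unequal the amounts were. Per TPM of SRP14 mRNA there were 9212 and 7495 TPM of 7SL in input and 9358 and 11327 TPM in Flag-IP, higher in the pull-down, though by little for input 1 and Flag-IP 1. Per TPM of SRP54 mRNA there were 80754 and 59153 TPM in input and 31524 and 35946 TPM in Flag-IP, lower in both. Per TPM of SRP68 mRNA the values were 36153 and 35269 in input and 29348 and 32744 in Flag-IP, also lower. The ratios to SRP9, SRP72, SRPRA and SRPRB overlapped between the groups. Averaged over all 8 mRNAs, SRP19 included, log2 of 7SL over mRNA was 15.68 and 15.71 in input and 15.20 and 15.48 in Flag-IP. The difference was -0.35, and -0.21 without Flag-IP 1. The levels of SRP19 are too low for a fold. With SRP19 left out of the mean, an alternative chosen after seeing the data, the difference was -0.18. Of the mRNAs left in, SRP54 had the largest difference (-1.04). The others ran from -0.23 (SRP9) to 0.31 (SRP14), with either sign among them. A mean without SRP54 was not taken, so no general fall of 7SL against these mRNAs is read from it. With 2 libraries against 2 an exact two-sided permutation test cannot go below 0.333, so these ratios carry no test.

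SRP54 was singled out for its difference in these same libraries, so its ratios to partner mRNAs are no further support. SRP54 was at 0.114 and 0.127 times SRP14 in input and at 0.297 and 0.315 times in Flag-IP. Against SRP72 it was at 0.325 and 0.407 in input and at 0.826 and 0.885 in Flag-IP, and against SRPRA at 0.527 and 0.601 in input and at 1.16 and 1.04 in Flag-IP. Its ratios to SRP9 and SRP68 were likewise above both inputs in both pull-downs. Against SRP19 its ratio overlapped between the groups (5.94 and 22.6 in input, 6.74 and 9.51 in Flag-IP).

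The genes whose course over the 4 libraries was nearest to that of 7SL were chosen among the 118 genes averaging 100 TPM or more, by the Euclidean distance of centred log2(TPM + 1) profiles. The 4 nearest were RPL26 (distance 0.0575), HIST1H2AM (0.0651), RPS10 (0.0833) and RMRP (0.10), that is 2 ribosomal protein mRNAs, a histone mRNA and the RNA of RNase MRP. RPL26 was at 131.72 and 146.89 TPM in input and at 264.34 and 223.28 TPM in Flag-IP. Nearest to the mean course of the 7 tested SRP mRNAs, among the 1536 genes averaging 5 TPM or more, were PRKCB (0.0201), XRCC6 (0.0219), TOMM20 (0.0436), RPL9 (0.0465) and RPL24 (0.0474). With 4 libraries in 2 groups many genes share such a course.

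Downstream of SRP, the translocon SEC61 and its partners take the nascent chain across the membrane and signal peptidase cuts the signal off. Of 17 listed genes 13 were tested. On the deposited scale limma called 12 higher and none lower, with a median of 0.66, and on the median-ratio scale none higher and 3 lower, with a median of -0.27. Of all tested genes 86.6% were higher as deposited, and 22.3% were higher and 18.6% lower on the median-ratio scale. Of the 13, 2 had an input mean below 1 TPM and passed the filter through Flag-IP, both among the 12. SSR4 and SSR2, subunits of the translocon-associated TRAP complex, had the highest levels. SSR4 was at 17.18 and 16.83 TPM in input and at 31.79 and 29.39 TPM in Flag-IP (-0.40 on the median-ratio scale, limma adjusted p = 0.052). SSR2 was at 9.17 and 10.04 TPM in input and at 14.32 and 13.47 TPM in Flag-IP and was lower on that scale (-0.67, limma adjusted p = 0.0067). So was SEC62, a translocon partner, by limma (-0.44, adjusted p = 0.031). Its deposited values, 0.90 and 1.16 TPM in input and 1.85 and 1.06 TPM in Flag-IP, overlapped between the groups. The third was SEC61A1, the pore subunit, named after its value was seen (-0.39, limma adjusted p = 0.035).

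The next list held factors that meet the nascent chain or serve routes independent of SRP. Of 10 listed genes 9 were rows and 8 were tested (BAG6 was not analysed here). On the deposited scale limma called 4 higher and none lower (median 0.44), and on the median-ratio scale none higher and 5 lower (median -0.53), beside 86.6% of all tested genes higher as deposited and 18.6% lower on the median-ratio scale. Of the 4 called higher, 2 had an input mean below 1 TPM and passed the filter through Flag-IP. NACA, whose product binds nascent chains beside SRP on the ribosome, was at 83.7 and 97.32 TPM in input and at 110.7 and 88.87 TPM in Flag-IP, with overlap as deposited. NACA was lower relative to the typical gene, on the median-ratio scale (-1.12, limma adjusted p = 0.0012). Its partner BTF3 was at 25.55 and 25.00 TPM in input and at 35.22 and 29.24 TPM in Flag-IP and was also lower (-0.89, limma adjusted p = 0.0034).

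RNA polymerase III, its factors TFIIIC and TFIIIB, and La (SSB), which binds the 3′ end of new 7SL, make and guard the RNA. Of 21 listed genes 16 were tested, 14 higher and none lower on the deposited scale (median 0.88), and 4 higher and 3 lower on the median-ratio scale (median 0.09). These shares were near those of all tested genes (86.6%, 22.3% and 18.6%). Of the 16, 7 had an input mean below 1 TPM and passed the filter through Flag-IP, among them 7 of the 14 and 2 of the 4 called higher. GTF3C1, the largest subunit of TFIIIC, was at 2.34 and 3.22 TPM in input and at 11.16 and 9.34 TPM in Flag-IP and was higher on the median-ratio scale (0.53, limma adjusted p = 0.014). SSB was at 4.44 and 7.01 TPM in input and at 11.5 and 6.49 TPM in Flag-IP, with overlap as deposited (-0.55 on the median-ratio scale, limma adjusted p = 0.068). POLR3GL, an isoform of a polymerase III subunit, was at 2.65 and 3.37 TPM in input and at 4.37 and 3.19 TPM in Flag-IP and was lower on the median-ratio scale (-0.72, limma adjusted p = 0.0042). Over the 3 lists of protein-coding genes together, the 30 deposited calls became 18 without input 1, and the 15 median-ratio calls became 9 without Flag-IP 1 and 8 without Flag-IP 3.

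**Figure D4:**
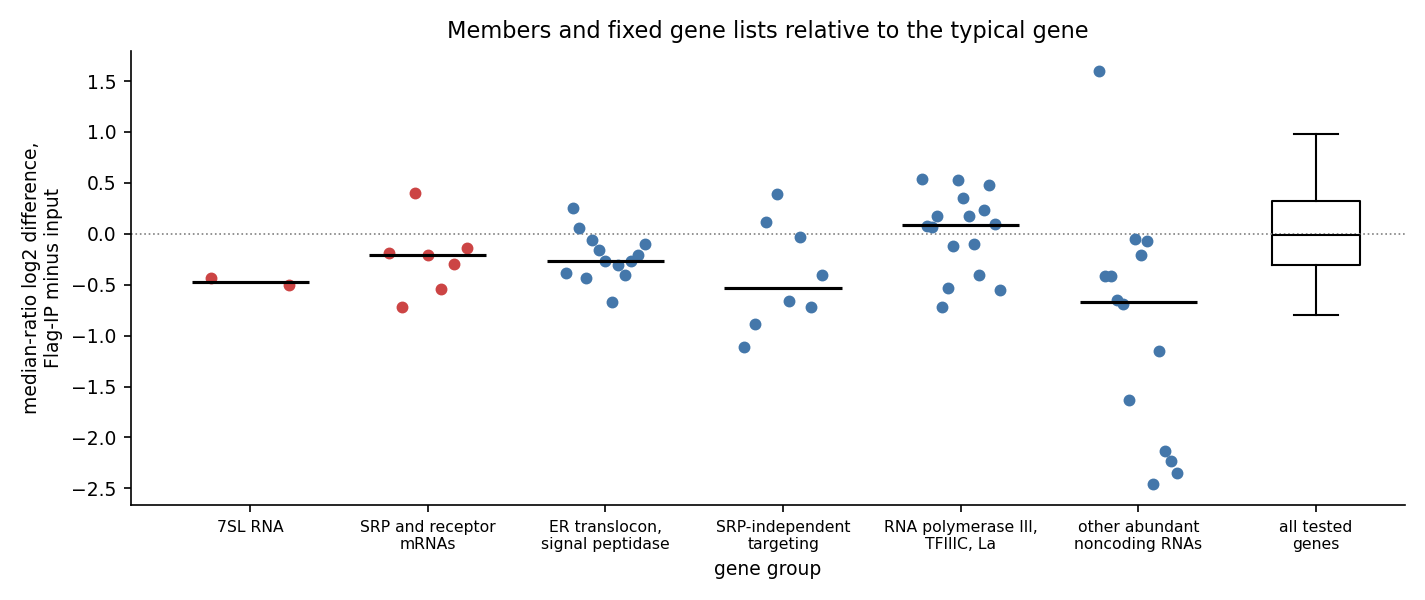
Median-ratio log2 difference (Flag-IP minus input) of the tested genes of each group, 1 point per gene with a bar at the group median, beside a box of all 6487 tested genes whose whiskers span the 5th to 95th percentile. The points of 7SL, the SRP mRNAs and the translocon list lie mostly below 0, with SRP54 (0.40) above, and the other noncoding RNAs span from -2.46 to 1.60 (RN7SK).

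Features of the libraries that touch these values were as follows. Structural RNAs, 7SL among them, took 96.3% to 96.8% of TPM in input and 92.5% to 93.6% in Flag-IP, and rows at 1 TPM or more numbered 4076 and 4543 in input and 7970 and 7249 in Flag-IP. The bait mRNA ALKBH5 was at 4.62 and 4.91 TPM in input and at 10.09 and 8.91 TPM in Flag-IP; as every library carried the transgene, it does not check the labels. Of 13 markers of monocytic leukaemia 10 had a mean of at least 1 TPM. Below that mean were the myeloperoxidase gene MPO, at 0.13 TPM or less, LYZ and HOXA9. LYZ was at 0.4 and 0.8 in the inputs against 1.63 and 0.95 in the pull-downs, and HOXA9 at 0 and 1.06 against 0.96 and 1.55. Summed TPM of the list ran from 78.7 to 93.5 for the inputs and from 138.03 to 147.27 for the pull-downs. CTSG, ELANE and AZU1 were its highest genes in every library. Whether the cells were monocytic was not tested with this list. Of 12 markers of other cell types 6 were listed at 0 throughout and 2, NKG7 and PECAM1, had a mean of at least 1 TPM (summed 12.65 to 15.72 and 24.64 to 26.19 TPM); their part in the results was not tested.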

How the data were processed

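RNA was measured in 2 input and 2 Flag-IP libraries of NOMO-1 cells. STAR, RSEM and GRCh38 are named, without roles, per the submitters' processing notes; versions, annotation and strand setting were not given in the sources used here. Deposited by the authors is TPM per gene symbol, 1 column per library; each sums to 1000000 within rounding, and the number of reads is unknown. RSEM, where used, divides reads shared by near-identical genes by estimate, and TPM of an RNA as short as 7SL depends on the effective length assumed for it.

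Genes averaging 1 TPM or more were fitted on log2(TPM + 1) with limma 3.58.1 in R 4.3.3 (lmFit, eBayes with a mean-variance trend; two-sided, Benjamini-Hochberg over all genes tested, adjusted p below 0.05), without a block. A log2 difference of this kind understates the change of low genes. The fit was run as deposited, after median-ratio scaling (each library divided by the median ratio to gene geometric means) and after division by summed RN7SL1 and RN7SL2. On the deposited scale the prior degrees of freedom were infinite, so a gene's error is that of the trend and p-values may be too small. Ratios within a library were not tested. The members, gene lists, tests and alternatives were chosen with earlier results of these data known. Named were all members, near copies and antisense rows, the highest and the most changed members of each list by the median-ratio scale (2 each), noncoding RNAs of the list with a mean of at least 100 TPM, the nearest profiles and ALKBH5. SRP14-AS1, the only near-copy or antisense row, was at 0.02 to 0.06 TPM. Positions, lengths and sequence identity came from GENCODE 29 (GRCh38) by gene name, with all 10 members matched. The fit was also run on simulated TPM with known changes in some genes. The simulation lacked the shift of most genes seen here, so it does not check the calls reported. Alternatives were other scalings, filters and pseudocounts, no trend, the replicate number as a block, subtraction of a loess fit on transcript length (span 0.5), and each library left out. Some sequences and a gene are not reported here.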

Additional observations from a re-analysis of the deposited data

How the results depend on the processing

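The depth of the libraries is unknown, so which low members depth limits cannot be said. A fit without 1 library leaves 1 group with a lone sample, assumed to vary like the other group. On the deposited scale the 9 calls among members became 3 with quantile scaling (all lower), 2 with library totals taken without structural RNAs (1 higher, 1 lower), 3 of 3 tested at a mean of at least 5 TPM and 1 with the length trend removed. Leaving out 1 library gave 4 to 9. The 30 calls of the 3 pathway lists, all higher as reported, became 15 (3 higher, 12 lower), 11 (5 and 6), 5 (all higher) and 6 (1 and 5) under the same settings, and 18 to 31 with 1 library left out. On the median-ratio scale the 4 member calls became 2 with structural RNAs left out, no filter, the 5 TPM filter, or the length trend removed, and 1 to 3 with 1 library left out; the 15 list calls became 8 without a filter, 4 at 5 TPM, and 8 to 10 with 1 library left out. Relative to 7SL the single call became 0 at 5 TPM, where SRP54 was not tested, and 2 with the length trend removed (SRP72 lower, -0.59).

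Signs that differed from the reported ones were these. With quantile scaling SRP9 was at -0.19, SRP14 -0.47, SRP68 -0.23, SRP72 -0.51, SRPRA -0.33 and SRPRB -0.29 against positive deposited values, and RN7SL1 at 0.50 and RN7SL2 at 0.15 against negative median-ratio values. With structural RNAs left out RN7SL1 was at -0.19, RN7SL2 -0.26, SRP14 -0.50, SRP68 -0.01, SRP72 -0.34, SRPRA -0.11 and SRPRB -0.02 against the deposited values, and SRP9 at 0.00 against the median-ratio value. With the length trend removed SRP14 was at -0.15, SRP68 -0.06, SRP72 -0.47, SRPRA -0.22 and SRPRB -0.34 (deposited), RN7SL1 at 0.00 and SRP9 at 0.10 (median-ratio), and SRP68 at -0.13, SRPRA -0.29 and SRPRB -0.22 (relative to 7SL). Relative to 7SL and with 1 library left out, SRPRA ran from -0.04 (without input 1) to 0.16 and SRP9 from -0.01 (without Flag-IP 1) to 0.37. The summed 7SL difference, 0.80 as deposited, was -0.47 with median-ratio scaling and -0.14 as a share of structural RNA other than 18S, 28S and 5.8S, RN7SK included. The deposited difference was 0.71 to 0.88 with 1 library left out. The 7SL to mRNA difference, -0.35, was -0.18 with SRP19 left out and -0.49 to -0.21 with 1 library left out. The cause of these changes was not tested.

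The groups share the replicate numbers 1 and 3, which nothing in the labels ties to a shared culture. Same-numbered deviations from the group means correlated at -0.168 over 6487 genes. With the replicate block the member calls were 7 as deposited, 2 after median-ratio scaling and 1 relative to 7SL, and the list calls 23 and 11. With the pairing crossed, chosen after seeing the data, the member calls were 9, 5 and 1 and the list calls 32 and 18.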
